A study of Homo sapiens with 4 samples.

Results

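The collagen gene family was examined in MCF-10A cells, a non-tumorigenic human mammary epithelial line, after treatment with stapled peptides. Its members were all genes whose symbol has the form COL, a number, A and a number, each encoding 1 chain of a collagen, with COL17A1 left out. Through the RefSeq accession of each probe, 43 chains of 20501 genes with a symbol were found, read by 55 of 50590 probes. Of these chains 33 had 1 probe and 10 had more, and 52 of the 55 probes stood on the array as a single spot.

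RNA was taken 24 h and 48 h after addition of a hydrocarbon-stapled peptide at 10 µM, and each combination of peptide and time was hybridized to 1 single-colour Agilent array. In the labels the first peptide is stapled-peptide and the second, marked as control, is non-specific stapled-peptide (the non-specific peptide below), and neither label tells which of the study's numbered stERAP peptides was used. The labels give all 4 arrays the same cell line, grown in mammary epithelial medium with bovine pituitary extract, hydrocortisone, EGF, insulin and cholera toxin, and no untreated cells were among them. With 1 array per peptide and time the peptides could not be tested within a time, so every difference below is a description of these arrays, and the number of arrays limits its precision.

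Collagens are made of 3 chains wound into a triple helix, and the chains of a molecule may come from the same gene or from different genes. Fibrillar collagens form the banded fibrils of connective tissue, FACIT collagens sit on the surface of such fibrils, type IV collagen forms the sheet-like network of basement membranes, and short-chain network collagens form lattices in particular tissues. Mammary epithelial cells rest on a basement membrane to which their own type IV and type VII collagens contribute, whereas most interstitial type I and III collagen of the gland is made by fibroblasts.

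Type IV genes lie head to head in pairs that share a promoter, and their reference sequences are shown because both genes of such a pair can be set beside each other in the results. The starts of COL4A1 and COL4A2 on chromosome 13 are 126 bases apart, those of COL4A6 and COL4A5 on chromosome X 379, and those of COL4A4 and COL4A3 on chromosome 2 418. The upstream windows of COL12A1 and COL16A1 are shown because they had the most negative 48 h differences among chains with a sequence entry. Sequences are from RefSeq on GRCh38.p14, written 5′ to 3′ on the strand given, at chr13:110307158-110307283 (+ strand, between the starts of COL4A1 and COL4A2), chrX:108439588-108439708 (+ strand, the 121 bases between the starts of COL4A6 and COL4A5 that both windows hold), chr6:75206054-75206303 (- strand, upstream of COL12A1) and chr1:31704018-31704267 (- strand, upstream of COL16A1). Capitals mark GGGCGG, the GC box, and CCAAT, the CCAAT box, on either strand.
COL4A1-COL4A2: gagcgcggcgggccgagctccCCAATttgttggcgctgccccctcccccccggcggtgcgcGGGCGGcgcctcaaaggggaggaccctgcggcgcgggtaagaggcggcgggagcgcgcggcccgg
COL4A6-COL4A5: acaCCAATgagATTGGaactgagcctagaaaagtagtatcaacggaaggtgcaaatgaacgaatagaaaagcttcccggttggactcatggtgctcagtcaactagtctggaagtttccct
COL12A1: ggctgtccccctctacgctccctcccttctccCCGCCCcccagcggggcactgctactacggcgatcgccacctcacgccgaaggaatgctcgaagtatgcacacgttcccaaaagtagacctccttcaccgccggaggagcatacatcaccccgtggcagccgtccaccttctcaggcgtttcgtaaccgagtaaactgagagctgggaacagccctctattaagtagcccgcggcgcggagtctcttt
COL16A1: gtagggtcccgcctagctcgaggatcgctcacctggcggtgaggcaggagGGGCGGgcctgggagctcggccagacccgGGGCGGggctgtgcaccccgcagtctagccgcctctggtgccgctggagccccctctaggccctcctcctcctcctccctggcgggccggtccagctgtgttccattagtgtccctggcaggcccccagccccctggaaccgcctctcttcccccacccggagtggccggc

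The stretch between COL4A1 and COL4A2 held 1 GC box and 1 CCAAT box and was 80.2% G and C, whereas that between COL4A6 and COL4A5 held 2 CCAAT boxes, 1 on each strand, and was 44.6% G and C. The COL12A1 window held 1 GC box (61.2% G and C) and the COL16A1 window 2 (73.2%). The 4 motifs named here were searched on both strands of the 250 bases before each start, and in the sequences printed no match overlapped another. Among 43 windows of 31 collagen chains with an entry, 24 (55.8%) held GGGCGG against 42.6% of 35116 windows of all genes, 11 (25.6%) held CCAAT against 32.0%, 7 (16.3%) held TATAAA, the TATA box, against 10.7%, and 1 (2.33%) held TGANTCA, the AP-1 site, against 6.57%. These matches describe the letters of the windows and were not set against the signals.

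The array labelled non-specific stapled-peptide at 48 h stood apart from the others. Over probes that passed the background mark on 1 or both arrays of a pair, the signals of the other 3 arrays correlated with each other at 0.976 to 0.978 (Pearson's r, over 32704 to 33332 probes), and with this array at 0.799 to 0.807. The technical measures were alike on all 4 arrays, with 62.5% to 65.7% of 58717 spots well above background, 343 to 438 spots marked as outliers, 0 saturated spots and a median coefficient of variation between spots of the same probe of 4.73% to 5.29%. Each signal below is a log2 value after quantile normalization over the 4 arrays, a step that gives every array the same distribution with a median of 4.85. Where 4 signals are listed, they run from stapled-peptide and the non-specific peptide at 24 h to the same pair at 48 h. A signal is compared between arrays only, never between probes. A probe is called well above background where the scanner software marked most of its spots so.

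Basal mammary epithelial markers were also lower on that array. All 15 of 15 of them were well above background on the other 3 arrays and 12 on it, and their summed log2 signal was 168.5 to 168.7 against 77.4. At 48 h 13 of them (86.7%) were over 4-fold lower, against 8.7% of all genes, and 0 were over 4-fold higher, against 8.1%. KRT5, a keratin of basal epithelial cells, had log2 signals of 14.65, 14.54 and 14.59 on the other 3 arrays and 5.02 on it. Luminal markers were at a summed 65.1 to 67.5 against 68.5 over 10 genes, with 8 well above background on each of the other arrays and 9 on it, and the near-equal sum holds members that differed in both directions at 48 h, among them the keratins KRT8 (−2.79) and KRT18 (−2.34), the receptor KIT (a bound of 3.44) and FOXA1 (1.31). The adhesion genes CDH1 (4.92 to 5.44 against 5.13) and EPCAM (4.86 to 5.58 against 6.46) were well above background on all 4 arrays. Fibroblast markers summed to 108.7 to 109.3 against 64.9 over 12 genes (10 or 11 well above background against 6), and DCN, the matrix proteoglycan decorin, was 14.84 to 14.96 against 5.73. Of 6 endothelial markers 3 to 5 were well above background on the other arrays and 2 on it, with summed signals of 29.0 to 31.5 against 17.1. Of 10 genes known from an embryonic kidney line 3 or 4 were well above background against 7, with summed signals of 41.0 to 42.5 against 91.5. This list, like the other marker lists, was chosen with earlier results of these data known. It therefore describes the array and cannot identify its cells. LIN28B, an RNA-binding protein of embryonic cells, had the largest difference of the 10. It was at least 504-fold higher on the array labelled non-specific 48 h than on the other 48 h array. L1CAM (a bound of −0.58) and PAX2 (a bound of −0.59, with 3.89 at its other probe) were lower at their brightest probes. PHOX2A was dim on all 4 arrays. Basal, fibroblast and kidney-line marker levels thus differed from those of the other 3 arrays, which carry the same cell line label. Which cells this array represents is in question and was not tested, and the label is kept here only as a name. On the other 3 arrays 10 or 11 of 12 fibroblast markers were well above background, DCN among them. Their match to the labelled cell line was not tested either, so they are not an established reference for it. Every 48 h comparison between the peptides rests on the array labelled non-specific 48 h, and the peptide cannot be told apart from whatever else set that array apart. In bulk RNA, fewer cells of a type and less RNA per cell cannot be told apart.

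Of the 43 collagen chains, 35 were well above background on at least 1 array and 25 on all 4. Among all 20501 genes with a symbol, 17675 were above it on at least 1 array. The 4 arrays had 28 (stapled-peptide, 24 h), 29 (non-specific, 24 h), 28 (stapled-peptide, 48 h) and 32 (non-specific, 48 h) chains above it. In the same order, 62.5%, 64.6%, 63.2% and 65.7% of all spots were above it. The 8 chains above it on no array were COL1A2 and COL3A1, chains of the type I and III fibrils of connective tissue, the fibrillar COL11A1, the FACIT chains COL21A1 and COL22A1, COL4A3, COL6A5 and COL15A1. COL2A1, COL9A2, COL13A1 and COL24A1 were above it only on the array labelled non-specific 48 h, COL5A3 and COL28A1 on the other 3 arrays but not on that, and COL6A6 only on the non-specific 24 h array. COL14A1, COL19A1 and COL23A1 had other patterns. The patterns were not counted over all genes, so they are not shown to be particular to collagens.

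**Figure D1:**
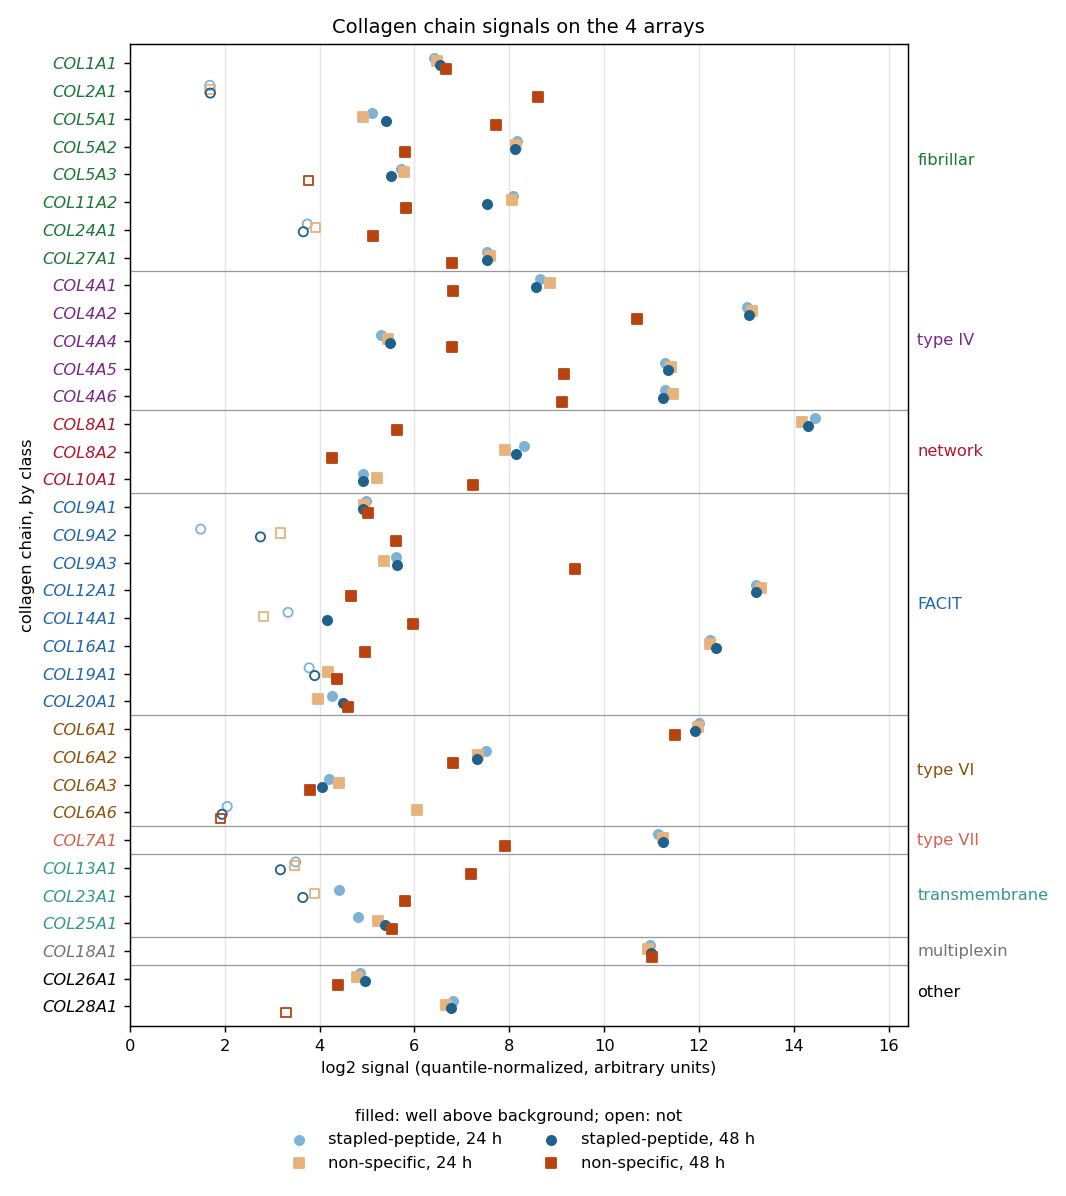
Each row is 1 of the 35 collagen chains well above background on at least 1 array, grouped by class, with its quantile-normalized log2 signal on the x axis; circles are stapled-peptide and squares non-specific stapled-peptide arrays, pale for 24 h and dark for 48 h, and open symbols were not well above background. For most chains the other 3 arrays lie close together, and the dark square of the non-specific 48 h array lies apart from them, to the left for chains such as COL8A1 (5.63 against 14.17 to 14.45) and to the right for chains such as COL9A3 (9.39 against 5.36 to 5.62).

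On the other 3 arrays the chains detected on each of them had similar signals. For these 27 chains, well above background on each of the 3, the highest and lowest log2 signals lay 0.05 to 0.57 apart, with a median of 0.19. Chains that were dim on any of the 3 are left out of this, among them COL6A6 (2.05, 6.06 and 1.94) and COL14A1 (3.33, 2.82 and 4.15). The same range was not taken over all genes, so it is not shown to be particular to collagens. The 27 chains were alike in this for stapled-peptide at both times and for non-specific stapled-peptide at 24 h. Within the 27 chains no pair of the 3 arrays lay more than 0.57 apart. Chains above background on only some of the 3 arrays cannot enter this range, so it does not speak for them.

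At 48 h, 34 chains had a difference between the peptides, taken as the log2 signal with the non-specific peptide less the log2 signal with stapled-peptide. For 26 of them it was measured on both arrays. For 8 the probe was well above background on 1 of the arrays only, so the dim array entered at the lowest signal that counted as well above background there, and the difference is a bound. On the array labelled non-specific 48 h, 10 chains (29.4%) were over 4-fold lower, against 8.7% of 17112 genes, and 5 (14.7%) were over 4-fold higher, against 8.1%. Bounds point in the direction in which the chain was detected, and among the 26 chains measured on both arrays 9 (34.6%) were over 4-fold lower against 7.62% of 14443 genes, 3 (11.5%) were over 4-fold higher against 6.17%, and 10 lay within 2-fold. Without normalization the counts over the 34 chains were 8 lower and 8 higher, against 7.52% and 10.6% of all genes under that setting. With the normexp background correction they were 7 and 2, against 5.027% and 3.999% of all genes. The median difference was −0.34 over the 34 chains and −0.53 over the 26, against 0.03 over all genes, and the chains were more spread out, with an SD of 3.12 against 1.76. Averaging a chain's probes gave a median of −0.13, and no normalization and normexp −0.15 each. Over 2-fold were 13 lower chains (38.2%, against 19.8%) and 10 higher (29.4%, against 21.2%), and over 10-fold 5 lower (14.7%, against 3.92%) and 2 higher (5.88%, against 2.64%). At over 100-fold, the threshold of the study's gene tables, 3 chains (8.82%) were lower against 0.707% of all genes, and 0 were higher against 0.24%. The lower chains were COL8A1, COL12A1 and COL16A1, and with normexp COL8A1 alone stayed past it (−7.39, with −6.58 for COL12A1 and −5.94 for COL16A1). The count of 0 higher rests on the bounds. COL2A1 entered as a bound of 4.72, and without normalization or a bound its difference was 7.20, past 100-fold (6.64 on the log2 scale).

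**Figure D2:**
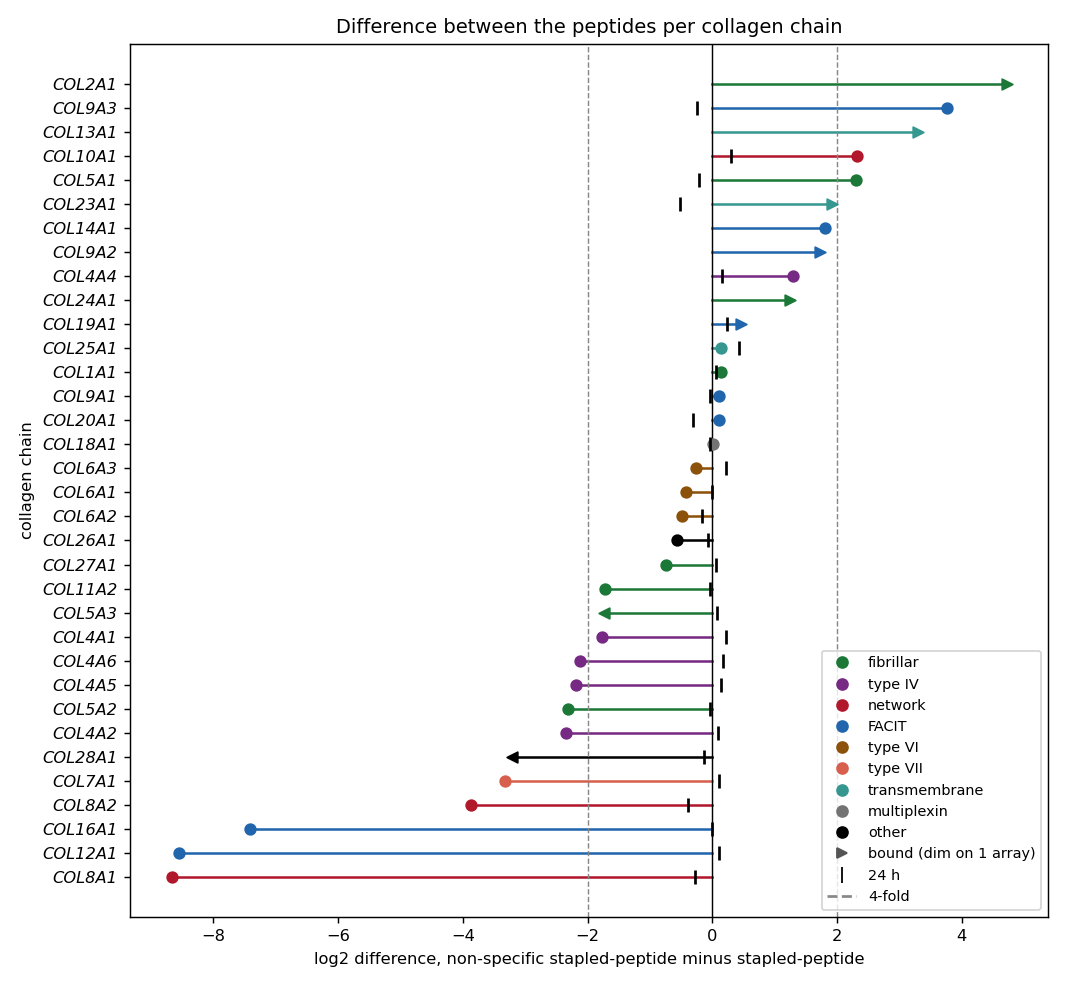
Each row is 1 of the 34 collagen chains with a difference at 48 h, and the x axis gives the log2 difference (non-specific peptide less stapled-peptide); dots are measured differences, arrowheads are bounds for chains dim on 1 array, black ticks are the differences at 24 h, and dashed lines mark 4-fold. Differences at 48 h ran from −8.67 for COL8A1 to a bound of 4.72 for COL2A1, while the 24 h ticks lie near 0.

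The place of the array labelled non-specific 48 h outside the others was not particular to collagens. Its signal was below that of all 3 others for 19 of the 35 detected chains and above it for 16, and among 17675 detected genes it was below for 45.1% and above for 45.4%, 90.5% in all.

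The short-chain network collagens held the lowest chain and 1 of the higher ones. COL8A1, the α1 chain of type VIII collagen, which forms lattices in the vessel wall and under the corneal endothelium, had log2 signals of 14.45 with stapled-peptide and 14.17 with the non-specific peptide at 24 h, and of 14.30 and 5.63 at 48 h. It was alike on 3 arrays and 407-fold lower (−8.67 on the log2 scale) on the fourth. COL8A2, its α2 partner, had 8.30 and 7.91 at 24 h and 8.13 and 4.27 at 48 h, a difference of −3.86 (14.5-fold), while its other probe gave a bound of −0.69. Both type VIII chains were thus lower there, COL8A1 by 4.81 more on the log2 scale than COL8A2. COL10A1, the chain of type X collagen of hypertrophic cartilage, went the other way, from 4.91, 5.21 and 4.91 on the other 3 arrays to 7.22, 4.98-fold above stapled-peptide at 48 h (2.32, and 1.36 with normexp). The median of the 3 network chains was −3.86, and −2.24 with normexp.

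Among the FACIT collagens, 8 of 10 had a difference at 48 h, and their median was 0.29. Of the 8, 2 (25%) were over 4-fold lower against 8.7% of all genes, and 1 (12.5%) was over 4-fold higher, near the 8.1% of all genes. COL12A1, which decorates type I fibrils in tendon and skin, had 13.20 and 13.31 at 24 h and, in the same order of peptides, 13.20 and 4.65 at 48 h, a 374-fold lower signal (−8.55). Its other probe had 8.54, 8.56, 8.99 and 3.51 in the same order of arrays, a bound of −5.43, so both probes were far lower on the last array. COL16A1, a chain found near epithelial basement membranes, had 12.23 and 12.22 at 24 h and 12.36 and 4.95 at 48 h, a 170-fold lower signal (−7.41). Its other probe, with 7.81, 7.85, 7.63 and 5.71, was lower by less (−1.92). The 2 probes of COL16A1 thus agreed in direction, and only the brighter one passed 4-fold.

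Type IX collagen coats the fibrils of cartilage, and its chains COL9A1, COL9A2 and COL9A3 assemble with each other. COL9A3 had 5.61 and 5.36 at 24 h and 5.62 and 9.39 at 48 h and was 13.6-fold higher on the array labelled non-specific 48 h (3.77). COL9A2 was not well above background on 3 arrays (1.49, 3.17 and 2.75) and had 5.61 on the array labelled non-specific 48 h, a bound of 1.73. COL9A1 stayed at 4.91 to 5.02 on all 4 arrays, a difference of 0.11, so that the COL9A3 difference exceeded that of its partner by 3.66. Of the remaining FACIT chains, COL14A1 had 1.82 (4.15 and 5.97 at 48 h), COL19A1 a bound of 0.47 and COL20A1 0.11, with a bound of 1.17 at the other probe of COL20A1. None of these 3 passed 4-fold.

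Type IV collagen, the network-forming collagen of basement membranes, had 5 of 6 chains with a difference at 48 h, with a median of −2.13. Of the 5, 3 (60%) were over 4-fold lower against 8.7% of all genes, and 0 were over 4-fold higher against 8.1%. COL4A2 had 13.02 and 13.11 at 24 h and 13.04 and 10.70 at 48 h (−2.34, 5.07-fold). COL4A1, its partner in the most widespread type IV molecule, had 8.64 and 8.86 at 24 h and 8.57 and 6.81 at 48 h, a difference of −1.76 that stayed under 4-fold (3.39-fold). The 2 genes share the promoter stretch on chromosome 13 shown above, and their differences lay 0.58 apart. COL4A5, a chain of kidney and epidermal basement membranes, had 11.28 and 11.41 at 24 h and 11.34 and 9.15 at 48 h (−2.19, 4.55-fold). COL4A6 had 11.29 and 11.45 at 24 h and 11.23 and 9.10 at 48 h (−2.13, 4.37-fold). COL4A5 and COL4A6, paired on chromosome X, differed by amounts only 0.06 apart. Without normalization both fell short of 4-fold (−1.94 and −1.87), as COL4A5 did with normexp (−1.99). COL4A4 was the exception in direction, with 5.29, 5.45, 5.48 and 6.78 in the same order of arrays and a difference of 1.30, and its neighbour COL4A3 was not well above background on any array.

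COL7A1 encodes type VII collagen, whose anchoring fibrils tie an epithelial basement membrane to the tissue below it. Its signals were 11.13 and 11.24 at 24 h and 11.24 and 7.91 at 48 h, 10.0-fold lower on the array labelled non-specific 48 h (−3.33). COL18A1, a multiplexin of basement membranes and the source of endostatin, was nearly equal on all 4 arrays, with 10.97, 10.93, 11.00 and 11.00 and a difference of 0.01. Of the type IV, VII and XVIII chains with a difference, COL4A2, COL4A5, COL4A6 and COL7A1 were thus over 4-fold lower. COL4A1 was lower by less (−1.76), COL18A1 was within 2-fold, and COL4A4 was higher (1.30).

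The fibrillar collagens held chains that differed in either direction. Of 11 chains 8 had a difference at 48 h, with a median of −0.30. It turned to 0.092 without normalization and to 0.11 with the mean over a chain's probes. Of the 8, 1 (12.5%) was over 4-fold lower, near the 8.7% of all genes, and 2 (25%) were over 4-fold higher against 8.1%. COL5A2, a chain of the type V collagen that starts fibrils and sets their width, had 8.17 and 8.14 at 24 h and 8.12 and 5.80 at 48 h (−2.32, 4.99-fold lower). COL5A1, which joins it in the most common type V molecule, had 5.11 and 4.91 at 24 h and 5.41 and 7.71 at 48 h (2.30, 4.94-fold higher). The differences of these partners were thus opposite and 4.62 apart, and the other probe of COL5A1 was dim on all 4 arrays. With normexp their directions were the same but neither passed 4-fold (1.33 and −1.54). COL5A3 had 5.71, 5.79 and 5.50 and then 3.77, a bound of −1.73. COL2A1, the main collagen of cartilage, was not well above background on 3 arrays (1.69, 1.69 and 1.70) and had 8.61 on the array labelled non-specific 48 h, so that it was at least 26.4-fold higher (a bound of 4.72).

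COL1A1, the α1 chain of type I collagen, was within 2-fold, at 6.41, 6.48, 6.54 and 6.67 (0.13). COL27A1 (−0.74) was within 2-fold too and COL24A1 had a bound of 1.24. For COL11A2, a chain of the type XI collagen of cartilage, the probes disagreed in direction. Its brightest probe had 8.08, 8.05, 7.53 and 5.81 (−1.71), while the others had 4.77, 5.11, 4.44 and 5.63 (1.19) and 6.38, 6.21, 6.08 and 6.86 (0.77), and averaging all of them gave 0.082. The direction of COL11A2 therefore depends on the probe read.

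Type VI collagen forms beaded filaments around cells, and 3 of its 5 chains had a difference, all within 2-fold at the brightest probe. COL6A1 had 11.99 and 11.99 at 24 h and 11.91 and 11.49 at 48 h (−0.42). COL6A2 (−0.49, with −1.27 at its other probe) and COL6A3 (−0.26) lay near it, and the differences of COL6A1 and COL6A2 lay 0.06 apart. The chains that assemble into type VI collagen thus lay close to each other at their brightest probes, while those of types V, VIII and IX lay farther apart.

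Among the transmembrane collagens, COL13A1, known from cell contacts and the neuromuscular junction, was not well above background on 3 arrays (3.49, 3.47 and 3.17) and had 7.19 on the array labelled non-specific 48 h, at least 9.86-fold higher (a bound of 3.30). COL13A1 is among the 3 chains with a probe of more than 1 spot. COL23A1 had a bound of 1.92 and COL25A1 a difference of 0.15, and the median of the 3 was 1.92, which was 0.63 with normexp. COL13A1 itself was at 1.43 with normexp. COL28A1, a short collagen with von Willebrand factor A domains, had 6.81, 6.67 and 6.77 on the other arrays and 3.29 on the last, at least 9.22-fold lower (a bound of −3.21, and −1.20 with normexp). COL26A1 differed by −0.57.

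**Figure D3:**
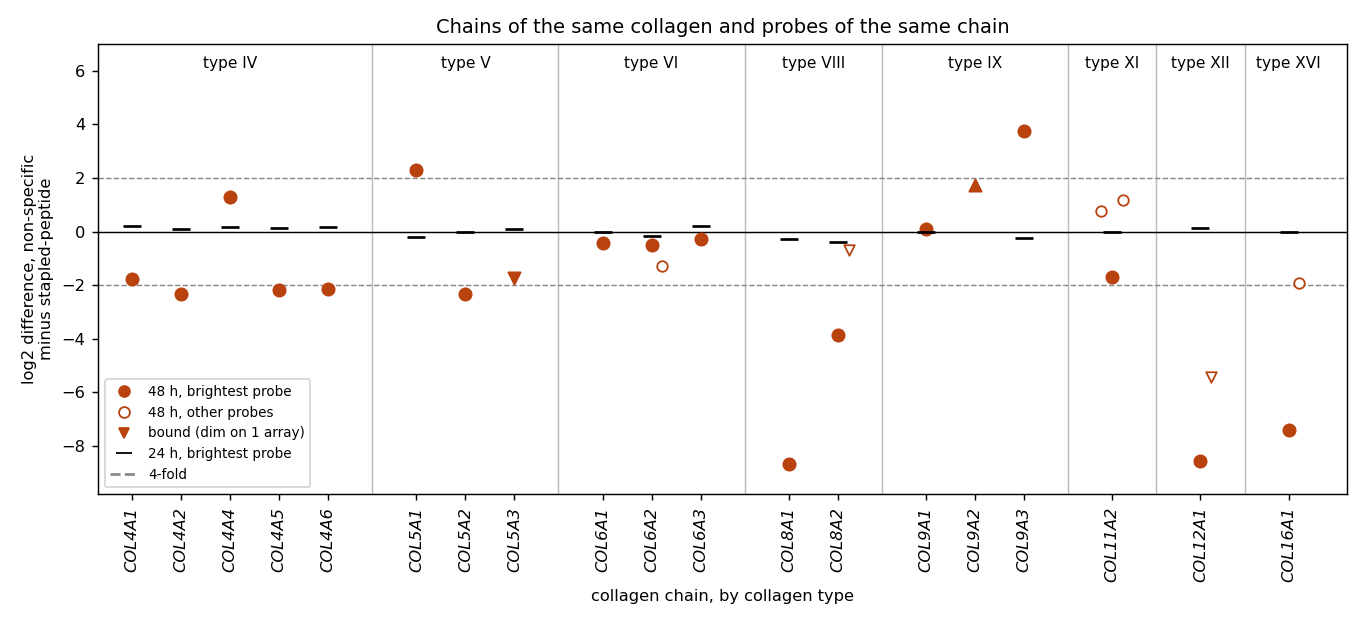
The x axis lists chains by collagen type and the y axis gives the log2 difference (non-specific peptide less stapled-peptide); filled symbols are the brightest probe of a chain and open symbols its other probes at 48 h, triangles are bounds, black bars are the 24 h differences and dashed lines mark 4-fold. Type VI chains lie between −0.49 and −0.26 at their brightest probes, with −1.27 at the other probe of COL6A2. COL5A1 (2.30) and COL5A2 (−2.32) lie on opposite sides of 0, and the probes of COL11A2 do too.

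At 24 h, 30 chains had a difference between the peptides, with a median of 0.03 against 0.01 over 16228 genes. Only COL6A6, a type VI chain, passed 4-fold, against 0.142% of all genes higher and 0.271% lower, and under 75th-percentile scaling, no normalization, normexp or with chains dim on either array left out 0 did. It had 2.05, 6.06, 1.94 and 1.92 in the usual order of arrays, was well above background on the non-specific 24 h array only, at a single spot, and was at least 2.12 higher there on the log2 scale. All other differences lay between −0.52 and 0.43. The SD of the 24 h differences was 0.44 over the chains and 0.34 over all genes. Of the 15 chains over 4-fold apart at 48 h, 13 had a difference at 24 h and it lay between −0.39 and 0.30. The remaining pair, COL2A1 and COL13A1, was dim on both 24 h arrays.

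Between 24 h and 48 h with stapled-peptide, 29 chains had a difference, which lay between −0.55 and 0.57 with an SD of 0.22, and 0 passed 2-fold, against 2.06% of 16138 genes in either direction. Between the arrays labelled non-specific, 35 chains had a difference from 24 h to 48 h. Of these, 14 (40%) were over 4-fold lower against 8.47% of 17297 genes, and 6 (17.1%) over 4-fold higher against 8.12%. This comparison shares its 48 h array with the comparison of the peptides, and its values beside those are −8.53 and −8.67 for COL8A1, −8.66 and −8.55 for COL12A1, −7.27 and −7.41 for COL16A1, −3.33 in both for COL7A1, 4.03 and 3.77 for COL9A3 and bounds of 4.83 and 4.72 for COL2A1. COL4A1 (−2.05), COL11A2 (−2.23), COL14A1 (a bound of 2.19), COL5A3 and COL6A6 (bounds of −2.02 and −2.50) passed 4-fold in it and not in the comparison of the peptides at 48 h.

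**Figure D4:**
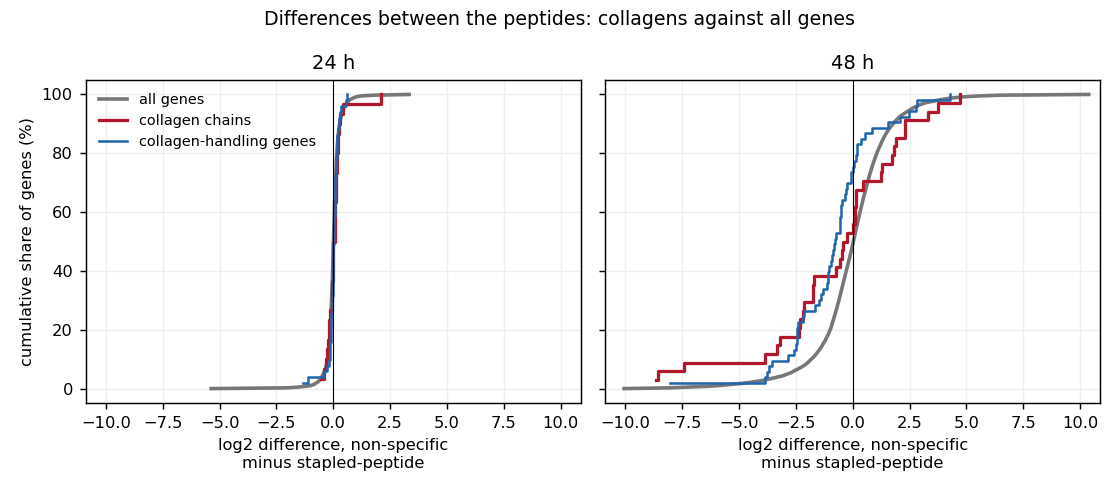
Cumulative share of genes (y axis, %) by log2 difference (non-specific peptide less stapled-peptide, x axis) at 24 h and 48 h, for all genes (grey), collagen chains (red) and genes that handle collagen (blue), with bounds plotted at their value. At 24 h the 3 curves lie close together near 0, apart from COL6A6 among the chains and DDR2 (a bound of −1.32) and TLL1 (a bound of −1.12) among the handling genes, and at 48 h the collagen curve is wider than that of all genes on both sides, with 29.4% of chains at over 4-fold lower.

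Collagen chains are hydroxylated and glycosylated in the endoplasmic reticulum, folded with chaperones, secreted, trimmed at their ends, cross-linked outside the cell and bound by receptors. Of 57 genes with these roles, 53 had a difference at 48 h, with a median of −0.77 against 0.03 over all genes. On the array labelled non-specific 48 h, 14 (26.4%) were over 4-fold lower and 5 (9.43%) higher, against 8.7% and 8.1% of all genes. At 24 h 0 of 51 passed 4-fold, DDR2 and TLL1 had bounds of −1.32 and −1.12, and the median was 0.01.

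The cross-linking genes had a median of −2.48 at 48 h. Among the 7, 4 (57.1%) were over 4-fold lower and 1 (14.3%) higher, against 8.7% and 8.1% of all genes. LOX, lysyl oxidase, which oxidizes lysines of fibrillar collagens, had 8.49 and 8.55 at 24 h and 8.73 and 4.96 at 48 h (−3.77, 13.6-fold). PXDN, peroxidasin, which links type IV molecules through sulfilimine bonds, had 13.01 and 13.05 at 24 h and 13.15 and 9.61 at 48 h (−3.54, 11.6-fold). LOXL1 (−2.58) and TGM2 (−2.48) were lower as well, while LOXL3 was higher at its brightest probe (2.78, with 0.60 at the other). PXDN was thus lower together with the type IV chains COL4A2, COL4A5 and COL4A6.

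Collagen receptors had a median of −0.90 over 9 of 10 genes (−0.27 with normexp and −2.46 without genes dim on either array). Among the 9, 4 (44.4%) were over 4-fold lower and 1 (11.1%) higher, against 8.7% and 8.1% of all genes. ITGA10, the α10 subunit of a collagen-binding integrin, had 13.76 and 13.82 at 24 h and 13.92 and 5.90 at 48 h (−8.02, 259-fold). ITGB1, the β1 subunit that all collagen-binding integrins contain, had 10.34 and 10.08 at 24 h and 10.20 and 6.33 at 48 h (−3.87, 14.6-fold). DDR1 (−2.82, with a bound of −0.69 at its other probe) and MRC2 (−2.46) were lower too. DDR2 had 5.11, 1.85, 1.86 and 6.35, well above background on the stapled-peptide 24 h array and the non-specific 48 h array, and a bound of 2.47.

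Propeptide processing genes had a median of −0.50 over 7 of 10 genes, which ranged from −1.32 to −0.068 over the other settings. BMP1, which cleaves the C-propeptides of fibrillar procollagens, had 8.95 and 8.74 at 24 h and 8.80 and 5.13 at 48 h (−3.67, 12.7-fold), and ADAMTS3 had a bound of 2.85. Of the 7, 1 was thus over 4-fold lower and 1 higher (14.3% each, against 8.7% and 8.1% of all genes). The 15 hydroxylation and glycosylation genes had a median of −1.07, with P4HA2 (−2.15), PLOD1 (−2.43), PLOD2 (−2.45) and P3H2 (−2.18) over 4-fold lower. That is 26.7% of them against 8.7% of all genes, and 1 (6.67%) was over 4-fold higher against 8.1%. COLGALT2, which adds galactose to hydroxylysine, was above background only on the array labelled non-specific 48 h (3.24, 3.06, 2.45 and 8.16), at least 19.3-fold higher. The 15 folding and secretion genes had a median of −0.30, with MIA2 lower (−2.40, and −0.91 and −0.30 at its other probes) and TMEM38B higher (2.07). Each was the only 1 over 4-fold in its direction, and 6.67% each way is under the 8.7% and 8.1% of all genes. SERPINH1, the collagen chaperone HSP47, differed by −0.77 and stayed within 2-fold.

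**Figure D5:**
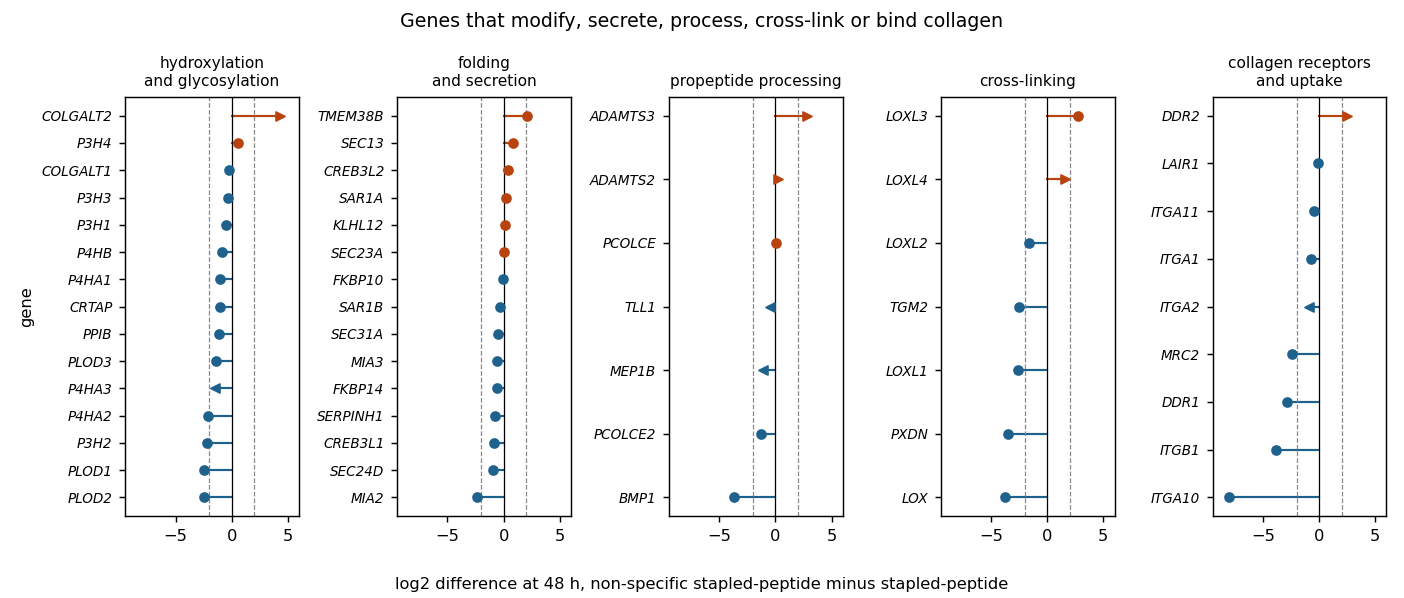
Each panel holds the genes of 1 role that had a difference at 48 h, and the x axis gives the log2 difference (non-specific peptide less stapled-peptide); dots are measured, arrowheads are bounds, blue is lower, red is higher and dashed lines mark 4-fold. ITGA10 (−8.02) lies farthest to the left, cross-linking and receptor genes hold most of the genes over 10-fold lower, and COLGALT2 has the largest bound to the right (4.27).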

How the data were processed

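RNA of MCF-10A cells on 4 single-colour Agilent arrays, all on 1 slide, was measured. Per the file headers, the deposited spot intensity values were made by the authors with Feature Extraction 10.7.1.1 (the submitters' processing notes name 9.5) as linear, background-subtracted signals, not normalized between arrays. The combined series table, checked on the files, held the geometric mean of these intensities over unmarked spots.

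Control spots and spots marked as outliers were left out, the spots of each probe were averaged as log2 signals and, as the study's methods state, quantile-normalized over the 4 arrays, and 9 of 50599 probes without a remaining spot were dropped. Symbols came from RefSeq accessions for 28174 probes (55.7%). Each chain was read at its brightest probe, by the mean over the 4 arrays. A probe well above background on 1 of 2 arrays gave a bound, and a probe dim on both no fold. The 8 chains dim on all arrays have no difference. Over 4-fold was called, with 2-, 10- and 100-fold beside it. Shares of all genes come from the same step over all genes.

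The collagen members, the classes, the lists of collagen-handling genes and of cell type markers, and the alternatives were chosen with earlier results of these data known. Signals on all arrays were given for chains over 4-fold apart at 48 h or with disagreeing probes, and for handling genes over 10-fold apart or set beside such a chain. Each peptide and time is a single array, so no test within a time could be run. Alternatives were no normalization, 75th-percentile scaling, normexp with an offset of 50 (limma 3.58.1, R 4.3.3), no bound, leaving out probes dim on either array, leaving out saturated probes, keeping marked spots, the combined table, averaging a gene's probes and other folds. The array's grid predates the genome build of the sequences shown. Python 3.11.15, numpy 2.4.6, pandas 2.3.3 and matplotlib 3.10.9 were used. The steps were tested on simulated data for the 48 h comparison with 50590 probes, where 99 of 100 probes made 8-fold lower were called over 4-fold and 0 of 100 with small changes. All changed probes were bright, and both sizes of change lay well away from 4-fold. The simulated arrays lacked the wide differences of the real array labelled non-specific 48 h. The check therefore says little about dim probes, bounds or such an array.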

Additional observations from a re-analysis of the deposited data

Results flagged for a closer look

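Of 13 collagen chains over 4-fold apart at 48 h that had a difference at 24 h, 7 (53.8%) differed the opposite way at 24 h and 6 the same way, against 44.0% the opposite way among 2441 such genes in all. COL12A1 differed by −8.55 at 48 h and 0.12 at 24 h, COL7A1 by −3.33 and 0.1, COL4A2 by −2.34 and 0.09, COL4A5 by −2.19 and 0.14, and COL4A6 by −2.13 and 0.17, while COL9A3 differed by 3.77 and −0.25 and COL5A1 by 2.3 and −0.21. With 1 array per peptide and time the difference between the times was not tested, and each of these 24 h values is within the SD of 0.34 of the 24 h differences over all genes.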

How the results depend on the processing

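No paired analysis was possible because the labels carry no replicate numbers and each peptide and time has 1 array, so no replicate could be left out. A fit of the peptide over both times, with the time as a term, would leave 1 residual degree of freedom and was not run, and the slide could not be fitted as a block because all arrays lie on 1 slide. Depth is not known for arrays; chains near or under background carry bounds or no value. The cause of the changes below was not tested unless the setting itself removes or adds values. The counts of 10 lower and 5 higher chains at 48 h and the median differences over all chains kept their direction under 75th-percentile scaling, marked spots kept and the combined table, which moved no chain by more than 0.34 (the SD of 24 h differences over all genes) at 48 h. No probe was saturated.

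The higher count was 8 without normalization, 2 with normexp, 3 with probes dim on either array left out, which drops bounds (both-array probes), 10 at 2-fold, 2 at 10-fold and 0 at 100-fold. The lower count was 5 at 10-fold and 3 at 100-fold, and 7 to 13 elsewhere. The single 24 h call, COL6A6, was lost under 75th-percentile scaling, no normalization, normexp, both-array probes, and 10- and 100-fold, each leaving 0. Without normalization the median 48 h difference of all genes moved from 0.03 to 0.26, 10.6% of genes were higher and 7.52% lower, COL4A5 and COL4A6 lost the call and COL9A2, COL14A1 and COL23A1 gained it. Normexp lost COL4A5, COL5A2 and COL28A1 among lower and COL5A1, COL10A1 and COL13A1 among higher chains. With it 3.999% of all genes were higher and 5.027% lower.

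Class medians moved for the fibrillar chains (0.092 without normalization, −0.74 with both-array probes, 0.11 with the mean over probes), the network chains (−2.24 with normexp, −2.28 with the mean over probes) and the transmembrane chains (0.63 with normexp, 0.15 with both-array probes). Among handling genes, propeptide processing moved to −1.05 with 75th-percentile scaling, −0.068 with normexp and −1.32 with both-array probes, cross-linking to −1.82 with normexp, and receptors to −0.27 with normexp and −2.46 with both-array probes. COL11A2 reversed to 0.082 with the mean over its probes, since its other probes enter it. Of 34 single chains, normexp moved 23, no normalization 11, the mean over probes 5 besides COL11A2, and no bound 3.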
